A study of Mus musculus with 12 samples.

Results

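A set of 7 genes of insulin signalling and fuel metabolism were followed across Sst- and Thy1-neurons of the mouse cortex with and without nicotine. They were chosen by name and function, as Insr, Irs2 and Rps6kb2 of the insulin pathway, Cpt1a of fatty acid oxidation, Pcx of anaplerosis, and Pygm and Gbe1 of glycogen metabolism, and all 7 were found among the 35129 gene entries of the deposited table. The study used male mice of 5 to 7 weeks from 2 transgenic lines. In GIN mice (strain background FVB) green fluorescent protein, driven by the promoter of a GABA-synthesizing enzyme, labels a subset of somatostatin interneurons, and in YFPH mice (strain background B6) the Thy1 promoter drives yellow fluorescent protein, chiefly in layer V pyramidal neurons. A subcutaneous mini pump delivered nicotine hydrogen tartrate at 48 mg/kg/d or saline for 14 days, after which fluorescent cells were aspirated by hand from the dissociated cortex in batches of 10 and their cDNA was amplified before sequencing. The groups are Sst (GIN mice, saline, 3 libraries), Sst+Nic (GIN mice, nicotine, 2 libraries, replicates 2 and 3), Thy1 (YFPH mice, saline, 2 libraries, replicates 2 and 3) and Thy1+Nic (YFPH mice, nicotine, 3 libraries), so that 10 of 12 libraries were used. Because each line has its own strain background, strain and cell type cannot be told apart in any comparison of Sst- with Thy1-neurons, and a lower level in a library cannot be told apart from fewer expressing cells in it.

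Insulin binds the insulin receptor, encoded by Insr, which phosphorylates adaptor proteins such as IRS2, and the signal passes through PI3 kinase and AKT to mTORC1 and the S6 kinases, of which Rps6kb2 encodes S6K2. In many tissues the same pathway holds the FoxO transcription factors in the cytoplasm, restrains fatty acid oxidation and favours glycogen storage. Neurons burn mostly glucose and lactate, whereas glycogen turnover and pyruvate carboxylation in the brain are known mainly from astrocytes.

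Before the levels were read, the entries were checked by their position in the genome, because 1170 of 1564 nuclear genes compared held under 5% of the group value given with the study. Entries near that value lay in stretches of chromosomes 7, 8, 16 and 19 and among the mitochondrially encoded genes, and these 904 entries, the 7 genes included, are the ones called readable here. The neighbours compared around 6 of the genes held 98.8% to 115% of that value, but those around Gbe1, which lie 4.45 Mb and 7.73 Mb away, held 52.1% and 84.9%, so the counts of Gbe1 may be too low in every library. The stretch of chromosome 16 held 43.9% to 119%, with 14 of 42 genes compared within 1%, so the same limit holds for the other genes read from it, among them Gsk3b, Crebbp, Ehhadh, Sst, Bcl6, Hes1, Cldn5, Hcls1, Cd86, Usp25, Jam2 and Bach1. Totals ranged from 2915738 to 4878326 fragments per library in the table, and an entry without counts may still have had 0.615 to 1.03 CPM (counts per 1000000 counts of that library in the table), the level of 3 counts. Since many entries hold few of their fragments, CPM, FPKM and shares of the total are higher than they would be over a complete table. Such limits and the 95% Wilson intervals given below cover counting error only. The interneuron label was checked with Sst itself, which had 53779 to 126088 CPM in Sst-neurons and 1.15 to 49.2 CPM in 4 of the Thy1-neuron libraries, but 3795 CPM in Thy1 replicate 3. The other interneuron marker that could be read, Chodl, had 1 count in 1 Thy1+Nic library and 0 in all others. Bcl6, the only gene of the pyramidal neuron list that could be read, had 68.2 to 175.0 CPM in Thy1-neurons and 2.06 to 8.70 CPM in Sst-neurons. Mitochondrially encoded genes took 16.3% to 22.1% of the fragments in Sst-neurons and 31.4% to 38.5% in Thy1-neurons.

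The promoter letters were read from RefSeq for GRCm38, where a window from 250 bases before to 50 bases after a start was given for Irs2, Cpt1a, Pcx (2 windows), Pygm and Gbe1. Stretches of 30 bases from 3 of them are shown because they hold the letters TGTTTTG, the core of the insulin response element read by FoxO factors, or the E-box CACGTG, which were searched on both strands. In Irs2 (minus strand, chr8:11008952-11008981) an E-box and the insulin response core stand 1 base apart and begin 44 bases before the start. In Cpt1a (plus strand, chr19:3323070-3323099) the core begins 219 bases before the start of its window, which lies inside the gene as placed below, and in Pcx (plus strand, chr19:4510222-4510251) an E-box begins 248 bases before the start in 1 of the 2 windows. The matches are printed in capitals.
Irs2: cgcagagtCACGTGtTGTTTTGctcttagt
Cpt1a: ggtgcaaagagcTGTTTTGgacatggcttt
Pcx: ccCACGTGaggctttcaagaaaagagagta
Over all 32851 promoter windows of the same length, 6.28% held TGTTTTG and 7.15% held CACGTG. Neither was found in the windows of Pygm and Gbe1 or in the other window of Pcx. Of 4 other motifs searched the same way, the forkhead letters TGTTTAC (3.65% of all windows) and the CRE TGACGTCA (1.79%) were in none of these windows, CCAAT (37.4%) was in those of Irs2, Cpt1a and Pcx, and the GC box GGGCGG (35.7%) in those of Irs2, Cpt1a, Gbe1 and 1 of Pcx. A match describes the letters only.

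**Figure D1:**
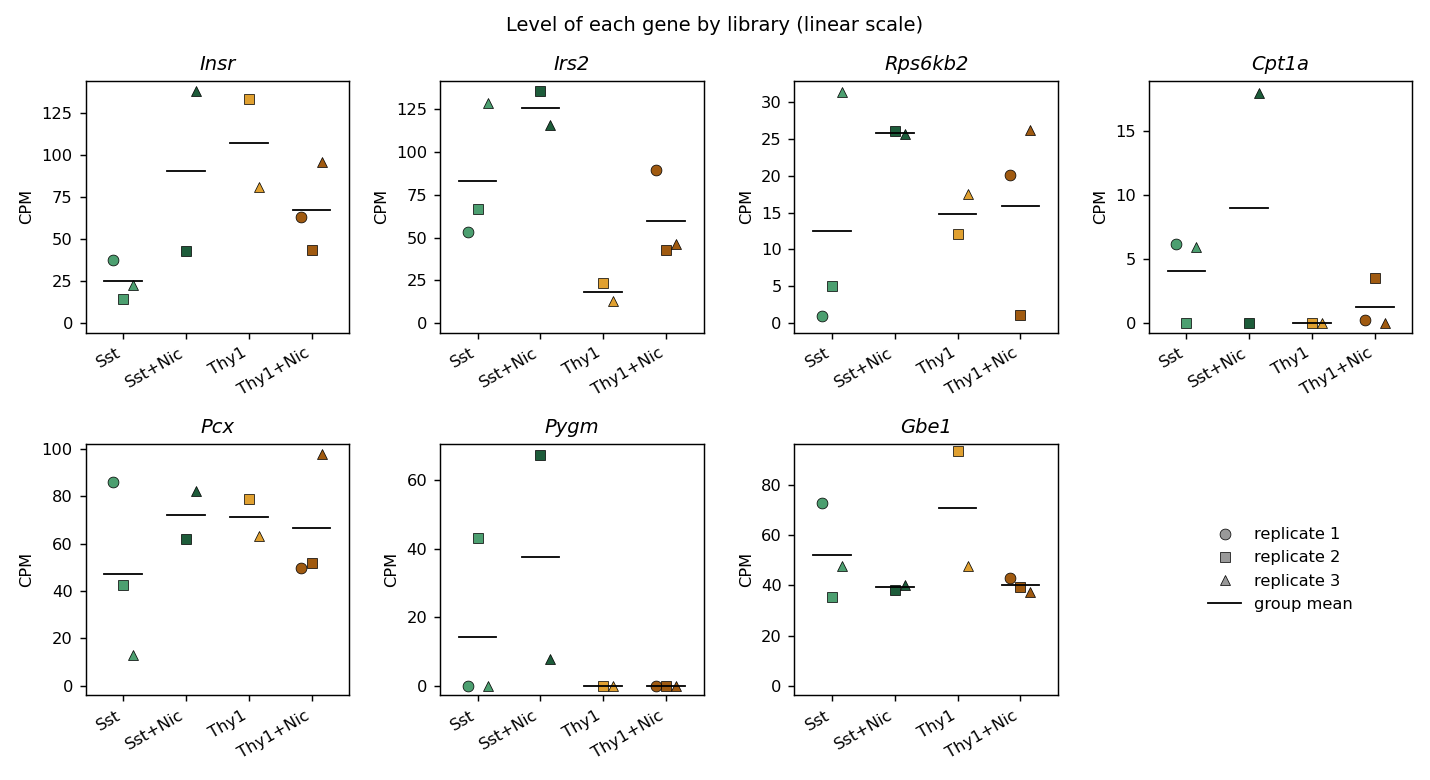
Level of each gene in CPM (linear axis, one panel per gene) in the 10 libraries of the 4 groups; symbols give the replicate number and the bar is the group mean. Insr was lowest in Sst (14.3 to 37.5 CPM), Irs2 was lowest in Thy1 (13.2 and 23.5 CPM), and Pygm was at 0 in all 5 libraries of Thy1-neurons.

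Insr and Irs2 stood in opposite order in the 2 cell types under saline. Insr (chromosome 8, 3150922 to 3279649) had 37.5 CPM in Sst replicate 1, 14.3 in replicate 2 and 22.7 in replicate 3, against 133.2 CPM in Thy1 replicate 2 and 81.0 in replicate 3. All Sst libraries lay below both Thy1 libraries, and the 95% Wilson interval of the highest Sst library (32.0 to 44.0 CPM) was clear of that of the lower Thy1 library (72.3 to 90.8 CPM). These intervals leave out the spread between libraries. Those of the 2 Sst+Nic libraries, which share a group, were also clear of each other (36.0 to 51.1 and 127.5 to 148.4 CPM). Irs2 (chromosome 8, 10984681 to 11008929) stood at 53.2 CPM in Sst replicate 1, 66.8 in replicate 2 and 129.0 in replicate 3, against 23.5 and 13.2 CPM in Thy1 replicates 2 and 3. Here all Sst libraries lay above both Thy1 libraries. Of the 6350 entries tested in this comparison, 15.3% lay below and 20% above without overlap, so that such an order was common. The log2 fold change (Sst vs Thy1) of Insr was -2.31 (SE 0.48, adjusted p = 0.0750) and that of Irs2 was 2.04 (SE 0.60, adjusted p = 0.166), by the quasi-likelihood test of edgeR with Benjamini-Hochberg adjustment. Neither was called a DEG (adjusted p under 0.05 and absolute log2 fold change above 1), and 1.72% of all entries and 4.78% of the position-checked ones (24 of 502) were. A p as small as that of Insr was found for 2.66% of the entries, and one as small as that of Irs2 for 6.98%. DESeq2 called both, with an adjusted p of 4.42e-04 for Insr and 0.0262 for Irs2, and limma voom called neither (adjusted p of 0.0554 and 0.168). With the mitochondrially encoded genes left out of the table, the log2 fold changes were -2.34 for Insr and 2.01 for Irs2. Without Thy1 replicate 3, the library with Sst fragments, they were -2.57 and 1.74, with adjusted p of 0.204 and 0.594.

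Within a library the ratio of the 2 counts needs no scaling between libraries. Irs2 had 1.42, 4.68 and 5.69 counts per Insr count in Sst replicates 1, 2 and 3, and 0.176 and 0.163 in Thy1 replicates 2 and 3. The ratio was thus above 1 in every Sst library and at most 0.176 in the Thy1 libraries. These genes were paired after their opposite order was seen, so the ratio is a description. Counts of Insr per count of Pcx did not separate the groups, with 0.438, 0.335 and 1.71 in Sst and 1.69 and 1.28 in Thy1, nor did those of Gbe1 per Pcx, with 0.846, 0.832 and 3.61 in Sst and 1.19 and 0.757 in Thy1. In Sst+Nic the counts of Irs2 per Insr count were 3.16 in replicate 2 and 0.842 in replicate 3. In Thy1+Nic they were 1.43, 0.984 and 0.483 in replicates 1, 2 and 3. With nicotine the ranges of Irs2 per Insr in the 2 cell types overlapped, which they did not under saline.

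**Figure D2:**
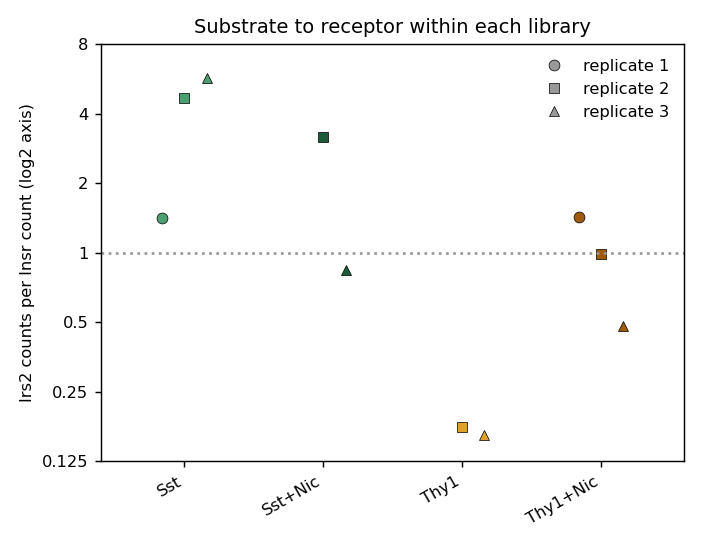
Counts of Irs2 per count of Insr in each library (log2 axis), by group; symbols give the replicate number and the dotted line marks a ratio of 1. The Sst libraries lie at 1.42 to 5.69 and the Thy1 libraries at 0.163 and 0.176, while Sst+Nic (0.842 and 3.16) and Thy1+Nic (0.483 to 1.43) overlap.

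With nicotine, Insr had 42.9 CPM in Sst+Nic replicate 2 and 137.5 in replicate 3, and 62.8, 43.5 and 95.7 CPM in Thy1+Nic replicates 1, 2 and 3. Both Sst+Nic libraries were above all Sst libraries, which was so for 16% of the 6689 entries tested, but the 2 were themselves far apart. The log2 fold change of Insr (Sst+Nic vs Sst) was 1.76 (SE 0.66, adjusted p = 1.00 by edgeR; 2.77% of entries had a p as small), and without Sst+Nic replicate 3 it was 0.47. In Thy1-neurons the log2 fold change of Insr (Thy1+Nic vs Thy1) was -0.58 (SE 0.42, adjusted p = 1.00), and the groups overlapped. Between the cell types under nicotine it was 0.03 (SE 0.61, adjusted p = 0.995), and without Sst+Nic replicate 3 it was -1.27. The pooled comparison over both treatments shares these libraries and gave -1.13 (SE 0.51, adjusted p = 0.229). It was called without Sst+Nic replicate 3 alone, at -1.90 (adjusted p = 0.00998), so that 1 library decided the call.

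Irs2 had 135.5 and 115.8 CPM in Sst+Nic replicates 2 and 3, and 89.8, 42.8 and 46.3 CPM in Thy1+Nic replicates 1, 2 and 3. All Thy1+Nic libraries were above both Thy1 libraries, which was so for 7.18% of the 6048 entries tested, whereas the Sst and Sst+Nic libraries overlapped. The sum of 5 markers of other cells, listed with Pygm below, was 100.8, 50.1 and 58.6 CPM in Thy1+Nic replicates 1, 2 and 3. In Thy1 replicates 2 and 3 it was 30.1 and 30.8 CPM. Only Hes1 of the astrocyte list was higher in every Thy1+Nic library, with 72.0, 50.1 and 51.3 CPM against 30.1 and 30.5 CPM. The 4 markers of microglia and endothelium had 28.8, 0 and 7.4 CPM in Thy1+Nic against 0 and 0.27 CPM in Thy1. The part of other cells in the level of Irs2 was not tested. The log2 fold change of Irs2 was 1.83 (SE 0.58, adjusted p = 1.00) in Thy1-neurons, where 0.678% of entries had a p as small, and 0.36 (SE 0.47, adjusted p = 1.00) in Sst-neurons. The smallest adjusted p for Irs2 in Thy1-neurons under any alternative with all libraries was 0.355, with DESeq2. Both Sst+Nic libraries were above all Thy1+Nic libraries, as for 30.3% of the 6509 entries tested, with a log2 fold change of 0.56 (SE 0.47, adjusted p = 0.713). Pooled over both treatments, Irs2 was 1.29 higher in Sst-neurons on the log2 scale (SE 0.45, adjusted p = 0.127), and it was called with DESeq2 (adjusted p = 0.0287) and with library totals in place of TMM (adjusted p = 0.0397).

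Whether nicotine acted differently in the 2 cell types was tested by the interaction, the log2 fold change for nicotine of the Sst-neurons less the one of the Thy1-neurons. It was 2.31 for Insr (SE 0.80, adjusted p = 0.672) and -1.49 for Irs2 (SE 0.75, adjusted p = 0.701), and 1.53% and 10.1% of the entries had a p as small. No entry of 8242 was called (percent called, 0), and 7.34% had an unadjusted p under 0.05. For Insr the value was 1.07 without Sst+Nic replicate 3. That library also held the highest level of Cpt1a, but not of the other 5 genes.

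Rps6kb2 (chromosome 19, 4156792 to 4163383), the S6 kinase gene, varied widely between the libraries of Sst and of Thy1+Nic. Its levels were 0.995, 5.10 and 31.3 CPM in Sst replicates 1, 2 and 3, 26.1 and 25.6 CPM in Sst+Nic replicates 2 and 3, 12.0 and 17.6 CPM in Thy1 replicates 2 and 3, and 20.2, 1.18 and 26.2 CPM in Thy1+Nic replicates 1, 2 and 3. The lowest values rested on 4 counts in Sst replicate 1 and 5 counts in Thy1+Nic replicate 2. The ranges overlapped in all 4 comparisons of groups, and log2 fold changes were between -0.42 and 0.81 with standard errors of 1.10 to 1.38. The highest of them, 0.81 for Sst+Nic vs Sst, was 2.09 with voom, 2.75 without Sst replicate 3 and 0.27 without Sst replicate 1, and none of these was called. Of its 5167 exon bases, 23.7% are shared with Ptprcap on the opposite strand, which had 74 counts over all libraries, and 0.871% with Coro1b, also on the opposite strand, which had 4552, so the strand of these reads bears on the level.

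**Figure D3:**
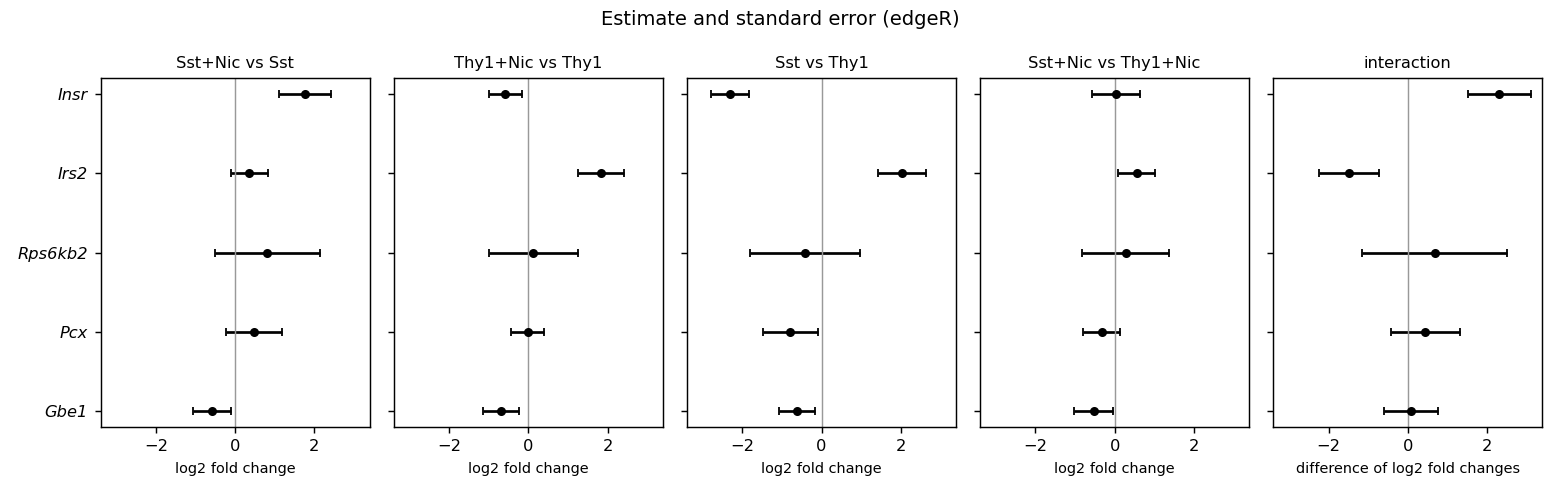
Log2 fold change with its standard error (edgeR) of the 5 genes with counts in every library, for the 4 comparisons of groups and for the interaction. Insr and Irs2 lie on opposite sides of 0 in Sst vs Thy1 (-2.31 and 2.04), and Rps6kb2, Pcx and Gbe1 lie between -0.79 and 0.81 in all panels.

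Other genes of the insulin list that could be read included Gsk3b, Crebbp and Socs1. Gsk3b, the kinase that restrains glycogen synthase and is inhibited by AKT, had 2098 to 3019 CPM in Sst, 2814 and 6173 CPM in Sst+Nic, 2395 and 2747 CPM in Thy1, and 809.1 to 1716 CPM in Thy1+Nic. All Thy1+Nic libraries were below both Thy1 libraries, as for 13.7% of entries, and the log2 fold change was -0.95 (SE 0.36, adjusted p = 1.00). Its interaction was 1.48 (SE 0.47, adjusted p = 0.672). Crebbp, a coactivator of CREB, had overlapping levels of 96.9 to 281.9 CPM in all groups, and Socs1, an inhibitor of cytokine and insulin signalling, had 0 counts in every library. Gsk3b and Crebbp were not called by edgeR in any of the 4 comparisons of groups, in the interaction or over both treatments, and Socs1 could not be tested.

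Cpt1a (chromosome 19, 3322326 to 3385735) encodes the liver-type carnitine palmitoyltransferase that admits long-chain fatty acids to the mitochondrion, and it was near the limit of detection. Its levels were 6.22, 0 and 5.94 CPM in Sst replicates 1, 2 and 3, 0 and 18.0 CPM in Sst+Nic replicates 2 and 3, 0 in both Thy1 libraries, and 0.288, 3.54 and 0 CPM in Thy1+Nic replicates 1, 2 and 3. Each group but Thy1 held at least 1 library with counts and 1 without. Pooled over the libraries of a group, Cpt1a was at least 9.60-fold higher in Sst (47 counts) than the limit that 3 counts over the Thy1 libraries allow, but Sst replicate 2 also had none, and with 1 Sst library left out the bound was 6.86-fold to 14.5-fold. By edgeR the adjusted p was 0.357 in Sst vs Thy1 and 0.391 over both treatments. Cpt1a passed the filter on low counts in Sst vs Thy1 through the Sst libraries alone, so its bound and p there support no difference. Over both treatments 135 of its counts were in Sst-neurons and 16 in Thy1-neurons, so the same limit holds there in large part. Ehhadh, the peroxisomal bifunctional enzyme and the only other of the 40 genes of the fatty acid list that could be read, had 0 counts in 3 of 5 libraries of Sst-neurons and 1.42 to 27.2 CPM in Thy1-neurons, with a log2 fold change of -2.21 (SE 1.54, adjusted p = 0.495) over both treatments. Neither gene of this list was called in any comparison.

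Pcx (chromosome 19, 4510472 to 4621752), pyruvate carboxylase, was the only one of the 34 genes of the pyruvate and anaplerosis list that could be read. Its levels were 85.8, 42.6 and 13.2 CPM in Sst replicates 1, 2 and 3, 62.1 and 82.2 CPM in Sst+Nic replicates 2 and 3, 78.8 and 63.1 CPM in Thy1 replicates 2 and 3, and 49.5, 52.0 and 97.8 CPM in Thy1+Nic replicates 1, 2 and 3. Sst replicate 3 was the lowest, and the ranges of the groups overlapped in every comparison. Log2 fold changes were 0.46 (SE 0.71) for nicotine in Sst-neurons, -0.01 (SE 0.42) for nicotine in Thy1-neurons, -0.79 (SE 0.70) for Sst vs Thy1 and -0.33 (SE 0.46) for Sst+Nic vs Thy1+Nic, with adjusted p of 0.699 or more. Lrfn4 lies within Pcx on the opposite strand and shares no exon base with it.

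Pygm (chromosome 19, 6384408 to 6398464), the muscle-type glycogen phosphorylase, which astrocytes also express, had counts in 3 of the 5 libraries of Sst-neurons and in none of the Thy1-neurons. Its levels were 0, 43.1 and 0 CPM in Sst replicates 1, 2 and 3 and 67.2 and 7.79 CPM in Sst+Nic replicates 2 and 3, on 169, 196 and 38 counts in the libraries above 0. All 5 libraries of Thy1-neurons had 0 counts, which allows up to 0.709 to 0.884 CPM in each. Pooled over libraries, the level in Sst-neurons was at least 126-fold higher than 3 counts over all Thy1-neuron libraries allow, and at least 76.1-fold without Sst+Nic replicate 2, but 2 of the 5 Sst-neuron libraries had none either. Both Sst+Nic libraries were above all Thy1+Nic libraries, as for 30.3% of entries, and edgeR gave an adjusted p of 0.122. Over both treatments the adjusted p was 0.0736, and 4.62% of all entries and 11.9% of the position-checked ones were called. Pygm did not pass the filter on low counts in Sst vs Thy1, and elsewhere it passed through the Sst-neuron libraries alone, so that its p-values and calls describe a gene that had to be higher there and support no difference. Without Sst+Nic replicate 3 it was called under nicotine (adjusted p = 0.0345) and over both treatments (adjusted p = 0.0134), and it was also called over both treatments without Sst replicate 3 (adjusted p = 0.0498), without Thy1 replicate 2 (adjusted p = 0.0218) or without Thy1 replicate 3 (adjusted p = 0.0238). In Sst-neurons the log2 fold change for nicotine was 0.89 (SE 2.21), and it was 10.0 without Sst replicate 2, the only Sst library with counts, and -1.19 without Sst+Nic replicate 2.

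Since Pygm and Pcx are known from astrocytes, markers of other cells were set beside them. Of 41 genes in the lists of astrocytes, oligodendrocytes, microglia, endothelium and red blood cells, 5 could be read. Hes1, the astrocyte-list gene, had 2.06 to 21.9 CPM in Sst-neurons and 30.1 to 72.0 CPM in Thy1-neurons, where Pygm was at 0. In Sst+Nic replicate 2, where Pygm was highest, Hes1 was lowest and Cldn5 of endothelium and Hcls1, Cd86 and Unc93b1 of microglia were at 0. In Sst replicate 2, where Pygm had 43.1 CPM, Cldn5 had 35.7 CPM and Unc93b1 11.7 CPM. In Sst+Nic replicate 3, where Pygm had 7.79 CPM, Cldn5 had 13.1, Unc93b1 11.9 and Cd86 5.12 CPM. So 2 of the 3 libraries with Pygm held counts of these 4 genes of endothelium and microglia, and so did 4 of the 7 libraries without it. Among the latter, Sst replicate 3 had 50.5 CPM of Cd86, 15.7 of Unc93b1 and 2.43 of Hcls1, Thy1+Nic replicate 1 had 12.1 CPM of Cldn5, 7.20 each of Unc93b1 and Cd86 and 2.30 of Hcls1, Thy1+Nic replicate 3 had 7.36 CPM of Cldn5, and Thy1 replicate 3 had 1 count of Cd86. The summed level of the 5 markers was 2.06 to 90.4 CPM in Sst-neurons and 30.1 to 100.8 CPM in Thy1-neurons. Gfap, Aqp4 and Aldh1l1, which define astrocytes, were not read here, and the part of other cells in the level of Pygm was not tested.

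**Figure D4:**
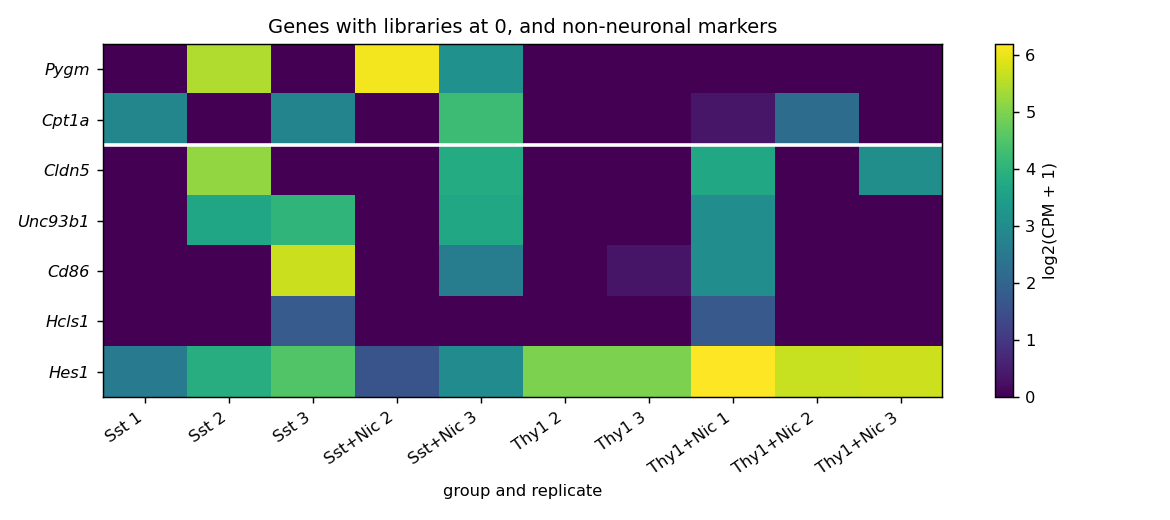
Pygm and Cpt1a (above the white line) and the 5 non-neuronal markers that could be read (below it) in each library, as log2(CPM + 1) in colour. Pygm is above 0 in Sst replicate 2 and both Sst+Nic libraries, and the markers are near 0 in Sst+Nic replicate 2, where Pygm had 67.2 CPM.

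Gbe1 (chromosome 16, 70313949 to 70569720), the glycogen branching enzyme, had levels from 35.5 to 93.4 CPM. Its levels were 72.6, 35.5 and 47.8 CPM in Sst replicates 1, 2 and 3, 38.1 and 40.2 CPM in Sst+Nic replicates 2 and 3, 93.4 and 47.8 CPM in Thy1 replicates 2 and 3, and 42.9, 39.5 and 37.4 CPM in Thy1+Nic replicates 1, 2 and 3. All Thy1+Nic libraries were below both Thy1 libraries, as for 13.7% of entries, while the Sst and Sst+Nic libraries overlapped. The log2 fold change was -0.69 (SE 0.45, adjusted p = 1.00) for nicotine in Thy1-neurons and -0.58 (SE 0.48, adjusted p = 1.00) in Sst-neurons, and the interaction was 0.08 (SE 0.68). Between cell types it was -0.62 (SE 0.46, adjusted p = 0.614) under saline and -0.53 (SE 0.49, adjusted p = 0.749) under nicotine. Gbe1 and Pygm were the 2 of 33 glycogen genes that could be read. By edgeR with all libraries neither was called. Pygm was called under nicotine with DESeq2 (adjusted p = 2.40e-04) and also with no filter or with a minimum of 10 counts in any library. As said with Pygm above, it entered through the Sst-neuron libraries alone, so these calls support no difference.

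Set beside each other per kilobase of exon, the 7 genes did not keep the same order in the 4 groups. In Sst the group means were 13.1 ± 6.39 FPKM for Irs2 (SD, n = 3), 9.93 ± 7.68 for Pcx, 9.71 ± 3.54 for Gbe1, 4.47 ± 7.73 for Pygm, 2.41 ± 3.18 for Rps6kb2, 1.82 ± 0.863 for Insr and 0.530 ± 0.459 for Cpt1a. The first 3 did not differ beyond their spread, and since the counts of Gbe1 may be too low its place in these orders is not settled. In Thy1 they were 14.9 ± 2.33 FPKM for Pcx (SD, n = 2), 13.2 ± 6.03 for Gbe1, 7.84 ± 2.70 for Insr, 2.90 ± 1.15 for Irs2 and 2.86 ± 0.758 for Rps6kb2, with Pygm and Cpt1a at 0. Leaving Gbe1 aside, Irs2 had the highest mean in Sst, while in Thy1 it stood below Pcx and Insr and level with Rps6kb2. In Sst+Nic Irs2 again had the highest mean, at 19.9 ± 2.20 FPKM (n = 2), and in Thy1+Nic it was at 9.43 ± 4.15 (n = 3) after Pcx at 14.0 ± 5.72, within their spread.

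**Figure D5:**
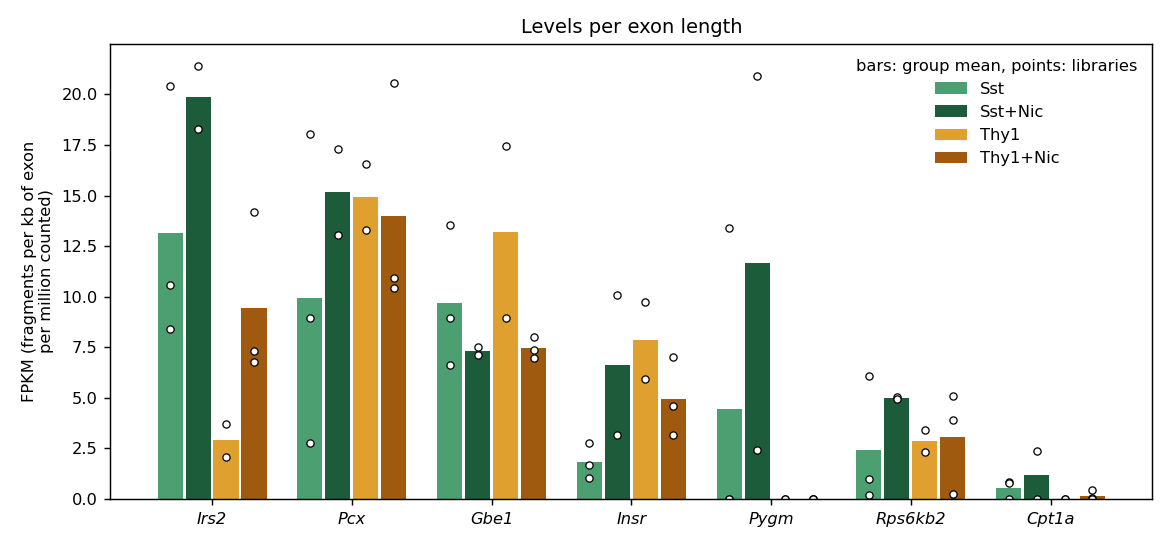
Levels in FPKM (fragments per kilobase of exon and 1000000 counted fragments, linear axis) of the 7 genes in the 4 groups; bars are group means and points are libraries. The Irs2 bars are the tallest in Sst (13.1) and Sst+Nic (19.9), and the Pcx bar is the tallest in Thy1 (14.9) and Thy1+Nic (14.0), with the bars of Gbe1 possibly too low.

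Taking the 7 genes as a list, 7, 5, 6 and 7 of them were tested in Sst+Nic vs Sst, Thy1+Nic vs Thy1, Sst vs Thy1 and Sst+Nic vs Thy1+Nic, and by edgeR 0 were called in each. DESeq2 called Insr and Irs2 in Sst vs Thy1 and Pygm in Sst+Nic vs Thy1+Nic. The call of Pygm has the limit given above and supports no difference. The shares of all entries called by edgeR were 0, 0, 1.72% and 0.507%, and among the position-checked entries, which include the 7 genes, they were 0, 0, 4.78% and 1.74%. Their median log2 fold changes were 0.81, -0.01, -0.52 and 0.28, beside 0.05, -0.003, 0.05 and 0.09 over all entries tested. Unadjusted p was under 0.05 for 1, 1, 2 and 1 of them, where 4.19%, 4.37%, 16.3% and 15.8% of all entries had such a p. Without overlap, 1 of the 7 lay above and 0 below in Sst+Nic vs Sst (16% and 4.78% of entries), 1 above and 1 below in Thy1+Nic vs Thy1 (7.18% and 13.7%), 1 above and 1 below in Sst vs Thy1 (20% and 15.3%), and 2 above and 0 below in Sst+Nic vs Thy1+Nic (30.3% and 8.66%). Among position-checked entries these shares above and below were 11.8% and 6.19%, 7.63% and 14.3%, 20.1% and 20.5%, and 28.8% and 13.9%, in the same order. Over both treatments none of the 7 had 5 libraries of one cell type clear of the 5 of the other. There 5.33% of all entries lay above and 3.13% below, and 7.85% and 7.48% of the position-checked ones. Over both treatments 0 of 7 were called and 3 had an unadjusted p under 0.05 (20.5% of entries). Nicotine changed no entry past the thresholds in either cell type by edgeR, with 280 and 264 entries at an unadjusted p under 0.05 in Sst- and Thy1-neurons, and DESeq2 called 16 and 14.

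Across the 10 libraries the levels of the 7 genes had little in common, with Pearson r of log2(CPM + 1) between -0.47 (Pygm and Gbe1) and 0.65 (Insr and Pcx), and -0.36 for Insr and Irs2. Among 518 entries outside the gene lists, those most like each gene were sought. The closest to Irs2 were Bach1 (r = 0.92), a heme-binding repressor of the BTB family, and Jam2 (r = 0.87), a junctional adhesion molecule. Bach1 had 30.1 to 66.1 CPM in Sst and 32.9 and 61.1 CPM in Sst+Nic, against 0.275 and 2.29 CPM in Thy1 and 5.44 to 13.5 CPM in Thy1+Nic, so that it was lowest in the Thy1 libraries, as Irs2 was. The closest to Insr were Usp25 (r = 0.87), a deubiquitinating enzyme with 32.9 to 57.9 CPM in Sst and 107.6 and 149.5 CPM in Thy1, and Myadm (r = 0.86). For Pcx they were Zdhhc24 (r = 0.93) and Zfp263 (r = 0.88), for Pygm Gm7451 (r = 0.93) and 4932443L11Rik (r = 0.81), for Cpt1a Lmln and Vmn2r-ps89 (both r = 0.86), for Gbe1 Gm16589 (r = 0.81) and P2rx6 (r = 0.73), and for Rps6kb2 B4galt4 (r = 0.77) and Tmem134 (r = 0.74). These values describe the best of many entries over 10 libraries that share depth and amplification, and no test was made of them.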

How the data were processed

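Libraries of hand-collected cortical neurons were counted per gene. The authors trimmed the paired reads, aligned them with TopHat to the mouse genome (GRCm38) and deposited fragment counts per gene entry without normalization; HTSeq is named in the submitters' processing notes, and the annotation behind the entries is not given in the sources used here. The Sst+Nic replicate 1 and Thy1 replicate 1 libraries were not used here. The study's methods give 3 mice per group, but no label ties a library to a mouse, so p-values measure the spread between these libraries. Library pairs of a group differed by far more than counting error.

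Entries were kept as position-checked where, along a stretch from the start of a chromosome, every gene compared with the group values supplied with the study (at least 50) held 0.3 to 3 times that value. These values were used only for this check. On chromosome 16 the stretch ended at 88.3 Mb, on chromosome 8 at 15.0 Mb, on chromosome 19 at 6.42 Mb and on chromosome 7 at 3.30 Mb. Genes are named by rule: the 7 genes, other list genes and markers in position-checked entries (1 list gene is not reported here), genes that overlap one of the 7, and for each of the 7 the 2 entries with the highest Pearson r. The genes, lists and tests were chosen with earlier results of these data known. Positions are those of RefSeq for GRCm38. FPKM used the union of exons, and this and the overlaps with other genes came from GENCODE for the same assembly. The bounds of a gene can differ between them, as for Insr, which starts at 3122061 in GENCODE.

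Each comparison used the whole table in edgeR 4.0.16 (R 4.3.3; TMM, filterByExpr with a minimum count of 10, quasi-likelihood F-test), with Benjamini-Hochberg adjustment over all entries tested, and standard errors came from the same fit. The study's own test, EBSeq, was not run. Alternatives were DESeq2 1.42.0, limma 3.58.1 (voom with quality weights), RLE size factors, library totals, no filter, a minimum of 10 counts in any library, 1 fit to every library, a replicate block, a table without the mitochondrially encoded genes, and fits without each library in turn; a fit on position-checked entries alone was added after seeing the data. The fits were also run on simulated counts that varied less between libraries than these data do. The common dispersion fitted by edgeR here was 0.826 to 1.33. That run therefore does not show how the fits perform on these libraries. Replicate numbers did not pair libraries (correlations of deviations between -0.08 and 0.02). Python 3.11.15, numpy 2.4.6, pandas 2.3.3, scipy 1.17.1 and matplotlib 3.10.9 were used for levels and plots.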

Additional observations from a re-analysis of the deposited data

Results flagged for a closer look

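The values of Insr with nicotine lay on opposite sides of the saline means in the 2 cell types: both Sst+Nic libraries were above the Sst mean (24.8 CPM), and all Thy1+Nic libraries were below the Thy1 mean (107.1 CPM). Neither change passed the test (adjusted p = 1.00 by edgeR for each), and Thy1+Nic replicate 3 (95.7 CPM) was above Thy1 replicate 3 (81.0 CPM). The difference between the effects was 2.31 on the log2 scale (SE 0.80), with an adjusted p of 0.672 by the interaction test of edgeR, and it was 1.07 without Sst+Nic replicate 3. Groups of 2 and 3 libraries are too small for a test of single outlying libraries.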

How the results depend on the processing

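The groups held 2 or 3 libraries, and several levels of Cpt1a, Rps6kb2 and Pygm rest on few counts or on 1 library. Of the values of the 7 genes, 343 of 366 under alternatives with all libraries kept their direction and their side of the thresholds, 14 passed the thresholds and 9 changed sign; with 1 library left out the numbers were 225 of 252, 6 and 21. None of the values that changed sign was called. Without TMM the median log2 fold change over all entries moved from 0.09 to 0.59 in Sst+Nic vs Thy1+Nic and from 0.05 to 0.22 in Sst vs Thy1, and over both treatments from 0.08 to 0.41. The entries called over both treatments were then 264 higher and 148 lower in Sst-neurons, against 161 and 220 with TMM, those under nicotine 17 and 7 against 15 and 18, and those under saline 48 and 39 against 52 and 57.

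Entries called under saline (Sst vs Thy1) were 551 with DESeq2, 454 with no filter, 266 with a minimum of 10 counts in any library and 33 with position-checked entries alone, of which fewer were tested; 2 (Insr and Irs2), 3 (these and Pygm) and 1 (Insr) of the 7 genes were called under the first 3. Under nicotine (Sst+Nic vs Thy1+Nic) 496, 356, 275 and 17 were called, with 1 of the 7 (Pygm) under each of the first 3, and 65 with voom and 105 with all libraries in 1 fit. For nicotine in Sst-neurons 16 were called with DESeq2 and 8 with no filter, and in Thy1-neurons 14, 13 and, with the minimum of 10 counts, 7. The interaction gave 7, 36 and 27 calls, and the comparison over both treatments 854, 673 and 622, beside 694 with voom and 63 in position-checked entries alone; there 1 of the 7 was called under each of 5 alternatives, Irs2 with DESeq2 and library totals, and Pygm with voom, no filter and the minimum of 10 counts. The cause of these differences was not tested. Here and below, the calls of Pygm carry the limit given with that gene and support no difference.

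With the replicate number as a block, for which the data gave no sign of pairing, 59 entries were called in Sst vs Thy1 and 9 in Sst+Nic vs Thy1+Nic, and 1 of the 7 (Pygm) over both treatments. Log2 fold changes under this block turned to -1.18 (Rps6kb2) and 0.10 (Pcx) in Thy1+Nic vs Thy1 and to -0.23 (Insr) in Sst+Nic vs Thy1+Nic. Other signs turned with voom to -0.60 (Rps6kb2, Thy1+Nic vs Thy1) and -0.12 (Insr, Sst+Nic vs Thy1+Nic), with all libraries in 1 fit to 0.011 (Pcx, Thy1+Nic vs Thy1), with library totals to 0.12 (Pcx, Sst+Nic vs Thy1+Nic) and 0.23 (Rps6kb2, both treatments), and with position-checked entries to 0.045 (Rps6kb2, both treatments).

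With each library left out in turn, 33 to 55 entries were called in Sst vs Thy1, fewer than with all libraries, 0 to 56 in Sst+Nic vs Thy1+Nic and 0 to 5 for the interaction, with 0 to 1 of the 7 called under nicotine and 0 to 2 over both treatments, where Insr and Pygm were both called without Sst+Nic replicate 3. That setting also gave the 56 entries, and the one without Thy1+Nic replicate 3 gave the 0. Log2 fold changes then spanned -6.90 to 2.13 for Cpt1a and -1.19 to 10.0 for Pygm in Sst+Nic vs Sst, -0.36 to 0.68 for Rps6kb2 and -0.31 to 0.14 for Pcx in Thy1+Nic vs Thy1, and -2.34 to 0.085 for Rps6kb2 in Sst vs Thy1. They spanned -1.27 to 0.68 for Insr, -0.26 to 0.76 for Rps6kb2 and -5.47 to 3.29 for Cpt1a in Sst+Nic vs Thy1+Nic, -0.34 to 0.42 for Gbe1 in the interaction, and -0.83 to 0.20 for Rps6kb2 over both treatments. A group reduced to 1 library was assumed to vary like the others in the fit.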
